A study of Mus musculus with 2 samples.

Results

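Total RNA sequencing of mouse megakaryocyte-erythroid progenitors was examined for 10 genes that encode the GATA1, TAL1, LMO2 and LDB1 transcription factor complex, its close paralogs and its cofactors. The genes were taken by name, with no filter on their values, though earlier results of these data were known. They are Gata1, Gata2, Tal1, Lyl1, Tcf3, Lmo2, Lmo4, Ldb1, Zfpm1 and Cbfa2t3. All 10 were found in the gene tables of both libraries, among 42462 gene rows that matched the annotation and 21461 nuclear protein-coding genes, and the transcript tables held 57 of their transcripts. The cells were primary cells of adult male C57BL/6J mice, 5 to 6 weeks old, prepared with a protocol for progenitors from bone marrow. They form 1 group of 2 libraries, biological replicates 1 and 2, and no treatment or altered allele is named for either. Ribosomal RNA was removed and each library was built from 100 ng with the ScriptSeq kit. The labels give its size range as 200 to 1000 in replicate 1 and 215 to 1000 in replicate 2, and name no unit. The libraries have separate biosample entries and 1 shared donor entry. Whether they come from separate mice or pools is not given, so the spread between them may not cover that between mice. A single group allows no contrast of conditions.

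GATA1 is a zinc finger factor that binds the GATA motif and is required for the red cell and platelet lineages. TAL1 binds the E-box motif as a dimer with an E protein, and the LIM-only protein LMO2 bridges this dimer and GATA1 to LDB1, whose dimerisation is known to bring distant regulatory elements together. FOG1, encoded by Zfpm1, and ETO2, encoded by Cbfa2t3, modify what the complex does at its targets.

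Levels are given as TPM (the share of all transcripts that a gene holds, scaled for transcript length), with the expected count (an estimated number of reads) where depth matters. Library totals were 39919884 expected counts in replicate 1 and 48043010 in replicate 2, and the 10 genes took 42621 and 57889 of them. Nuclear protein-coding genes held 25.5% and 20.6% of all TPM. Differences between the libraries were set against 9033 nuclear protein-coding genes, those whose mean TPM was 1 or more and whose expected counts summed to 20 or more. Over these genes the median log2 ratio of TPM, replicate 2 over replicate 1, was -0.32. Each difference is therefore given relative to this median gene unless stated, and a positive value is a gene whose share was larger in replicate 2.

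The labelled cell type was checked against marker genes. The summed TPM of 6 erythroid progenitor markers was 1336 and 1293 (replicates 1 and 2), led by the carbonic anhydrase genes Car1 and Car2. The sum of 5 megakaryocyte markers was 45.1 and 18.3, and that of 5 stem and multipotent markers 22.9 and 4.02. Among the megakaryocyte markers Pf4 (23.5 and 8.71) and Itga2b (19.6 and 5.7) were lower in replicate 2. Vwf (1.44 and 2.01), Gp9 (0.43 and 1.65) and Gp1ba (0.13 and 0.18) were higher. Neutrophil and monocyte markers summed to 60.0 and 120, of which the calcium-binding protein genes S100a8 (30.7 and 68.2) and S100a9 (15.9 and 30.7) were the largest. In the same list Mpo had 8.53 and 1.64 and Elane 0.39 and 0.05, in the opposite direction. T and NK cell markers summed to 8.99 and 20.2 with Cd3e and Cd8a at 0, and mast cell and basophil markers to 9.19 and 2.14 with Mcpt8 at 0. B cell markers summed to 0 and 1.64, eosinophil markers to 0.85 and 1.01, macrophage markers to 0.9 and 1.4 with Adgre1 and C1qa at 0, and stromal and endothelial markers to 4.09 and 2.21 with Col1a1 and Cdh5 at 0. The part of these marker differences in the values below was not tested, and in bulk RNA fewer cells of a type and less RNA per cell cannot be told apart.

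All 10 genes were detected at a TPM of 1 or more in each library, as were 39.4% of nuclear protein-coding genes, and all 10 had 10 expected counts in each, as did 50.3%. Their mean TPM ran from 94.5 for Lmo2 down to 2.38 for Lyl1. The order was Lmo2, Ldb1, Gata1, Tcf3, Zfpm1, Tal1, Gata2, Lmo4, Cbfa2t3 and Lyl1. Neighbours in this order were called apart where the TPM intervals that the authors deposited did not overlap, in both libraries. By that rule Tcf3 and Zfpm1, Zfpm1 and Tal1, Lmo4 and Cbfa2t3, and Cbfa2t3 and Lyl1 did not stand apart, while the other 5 neighbouring pairs did. The bridge gene Lmo2 and the scaffold gene Ldb1 thus had the highest values, and Lmo4, Lyl1 and the corepressor gene the lowest.

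**Figure D1:**
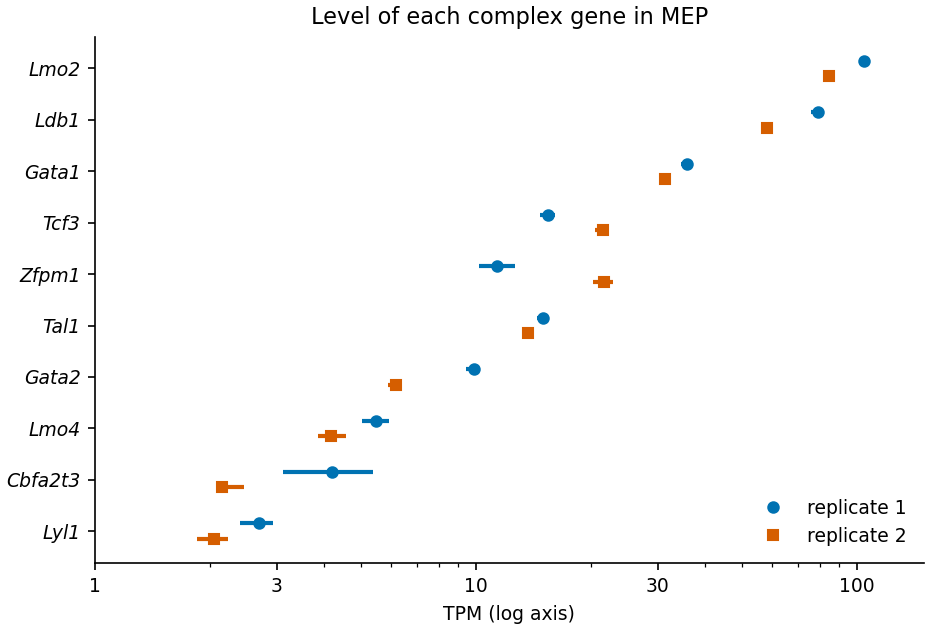
TPM (log axis) of the 10 complex genes in replicates 1 and 2, with the interval deposited by the authors around each value. Lmo2 (105 and 84.4) and Ldb1 (79.3 and 58.0) stand above Gata1 (35.8 and 31.3), and Lyl1 (2.7 and 2.05) is lowest.

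Gata1 (ENSMUSG00000031162.10, mm10 chrX:7959260-7978071, minus strand) is the GATA factor of the red cell and megakaryocyte lineages. Its TPM was 35.8 in replicate 1 and 31.3 in replicate 2 (33.6 ± 3.22, SD, n = 2), from 5494 and 7052 expected counts. Both values lay in the upper part of the detected genes, at percentiles 86.1 and 87.2 of the 8452 detected nuclear protein-coding genes. Relative to the median gene it was 0.12 higher in replicate 2 on the log2 scale, and without that centring the difference was -0.20. The whole signal was assigned to 1 transcript, Gata1-201, at 100% of the gene's TPM in both libraries. Gata1-202 starts 10161 bases upstream of Gata1-201 and had 0 counts in both libraries, where the upper ends of the authors' intervals allow a TPM of 0.0774 and 0.0533. Mouse Gata1 is known to have a distal first exon used in the testis and a proximal one used in blood cells; whether Gata1-202 carries the distal exon was not examined.

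Gata2 (ENSMUSG00000015053.10, chr6:88193891-88207032, plus strand) encodes the GATA factor of stem and early progenitor cells, which GATA1 is known to displace as red cells mature. Its TPM was 9.87 and 6.18 (8.03 ± 2.61, SD, n = 2), from 2695 and 2428 expected counts. It was lower in replicate 2 on all 7 scales tried, by -0.36 relative to the median gene, which is inside 2-fold. Gata1 exceeded Gata2 in both libraries, 3.63-fold in replicate 1 and 5.06-fold in replicate 2 in TPM. Of the 6 GATA genes, Gata1 held 78.3% and 82.6% of the summed TPM and Gata2 21.6% and 16.3%. Gata3 had 0.06 and 0.4, and Gata4, Gata5 and Gata6 had 0 counts in both libraries.

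The starts to which Gata2 reads were assigned differed between the libraries. Gata2-202 starts 4443 bases upstream of Gata2-201. The TPM of the downstream-start transcript Gata2-201 was 7.27 in replicate 1 (interval 5.97 to 8.23) and 0.83 in replicate 2 (0.50 to 1.20). The TPM of the upstream-start transcript Gata2-202 was 2.61 in replicate 1 (interval 1.5 to 3.77) and 5.35 in replicate 2 (4.85 to 5.70). Gata2-201 thus held 73.6% of the gene's TPM in replicate 1 and 13.4% in replicate 2, and for each transcript the intervals of the libraries do not overlap. Shares of expected counts gave nearly these values, 74.3% and 13.9%. The upstream start of Gata2 is known as the one used mainly in blood progenitors. With 1 library on each side the difference has no replicate check. The sum of the stem and multipotent markers also differed, mostly through Cd34 (TPM 18.3 and 1.44). In the same list Hlf (1.24 and 0.16), Flt3 (1.24 and 0.52) and Procr (0.39 and 0.01) were lower in replicate 2 too. Mecom had a TPM of 1.74 and 1.89, from 139 and 127 expected counts. The part of stem and multipotent cells in the Gata2 difference was not tested.

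The 2 promoter windows of Gata2 and that of Gata1 are shown because they lie at or near the starts whose use was measured. Each holds 250 bases before the RefSeq start and 50 after it, in GRCm38.p6, the assembly of mm10, read 5′ to 3′ on the gene's strand. Capitals mark any GATA motif (AGATAA, or the same with T as its first base, G as its last base or both, on either strand) or E-box (CANNTG).
Gata2 upstream, chr6:88193641-88193940, plus strand: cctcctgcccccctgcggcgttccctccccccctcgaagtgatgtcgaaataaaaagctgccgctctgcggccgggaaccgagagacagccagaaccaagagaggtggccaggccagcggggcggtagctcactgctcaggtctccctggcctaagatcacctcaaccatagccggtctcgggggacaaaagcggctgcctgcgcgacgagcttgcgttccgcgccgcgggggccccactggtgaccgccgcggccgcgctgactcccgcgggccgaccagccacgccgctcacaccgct
Gata2 downstream, chr6:88198414-88198713, plus strand: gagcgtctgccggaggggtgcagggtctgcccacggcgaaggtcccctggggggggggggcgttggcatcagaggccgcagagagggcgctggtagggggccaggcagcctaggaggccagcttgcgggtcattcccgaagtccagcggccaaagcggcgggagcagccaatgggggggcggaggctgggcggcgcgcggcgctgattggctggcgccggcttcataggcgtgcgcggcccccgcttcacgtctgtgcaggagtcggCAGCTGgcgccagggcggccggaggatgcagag
Gata1, chrX:7967861-7968160, minus strand: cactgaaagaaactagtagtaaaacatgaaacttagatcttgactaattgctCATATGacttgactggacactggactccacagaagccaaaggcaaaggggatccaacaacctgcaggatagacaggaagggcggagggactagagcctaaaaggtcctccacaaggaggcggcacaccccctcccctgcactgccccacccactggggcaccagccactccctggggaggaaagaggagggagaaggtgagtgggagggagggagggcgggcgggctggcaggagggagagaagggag
The first Gata2 window ends 50 bases into Gata2-202. The second lies at a RefSeq start 330 bases downstream of that of Gata2-201, so the start of Gata2-201 itself is outside the window. None of the 3 windows holds a GATA motif, and the second Gata2 window and the Gata1 window hold 1 E-box each.

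Tal1 (ENSMUSG00000028717.8, chr4:115056426-115071755, plus strand) encodes the class II bHLH factor of the complex. Its TPM was 15.0 and 13.7 (14.4 ± 0.94, SD, n = 2), from 5447 and 7271 expected counts. Relative to the median gene it was 0.18 higher in replicate 2, and -0.13 without centring. Tal1-201 held 99.1% and 96.3% of the TPM. Tal1-203, which starts farther downstream, went from 22.5 to 194 expected counts and stayed under 5% of the gene's TPM, at 0.47% and 3.07%. Lyl1 (ENSMUSG00000034041.4, chr8:84701457-84704715, plus strand), the paralog that can stand in for TAL1 in stem cells, had a TPM of 2.7 and 2.05 (2.38 ± 0.46, SD, n = 2) from 389 and 434 expected counts. Tal1 was 5.57-fold above Lyl1 in replicate 1 and 6.68-fold in replicate 2. Lyl1 lies within Nfix on the opposite strand (1104 and 1567 expected counts), and no source used here says whether the counting used strand, so its low values are uncertain. The third gene of this family, Tal2, had a TPM of 0.13 and 0.02.

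The upstream Tal1 window and the upstream Cbfa2t3 window are shown because each holds a GATA motif within 250 bases of the start of the gene's leading transcript, with capitals as before.
Tal1, chr4:115056176-115056475, plus strand: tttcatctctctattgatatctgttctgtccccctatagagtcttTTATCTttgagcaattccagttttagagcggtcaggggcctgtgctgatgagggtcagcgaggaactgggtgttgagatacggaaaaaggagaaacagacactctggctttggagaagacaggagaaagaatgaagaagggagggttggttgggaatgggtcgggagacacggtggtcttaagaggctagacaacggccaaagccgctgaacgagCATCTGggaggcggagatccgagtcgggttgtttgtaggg
Cbfa2t3, chr8:122699060-122699359, minus strand: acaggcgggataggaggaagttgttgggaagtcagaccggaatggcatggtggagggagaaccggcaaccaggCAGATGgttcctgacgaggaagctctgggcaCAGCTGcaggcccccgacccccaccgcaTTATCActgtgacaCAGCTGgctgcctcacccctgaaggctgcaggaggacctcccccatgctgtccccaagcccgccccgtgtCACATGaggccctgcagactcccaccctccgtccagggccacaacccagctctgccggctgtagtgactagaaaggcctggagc
The motif begins 205 bases before the start in Tal1 and 118 bases before it in Cbfa2t3. RefSeq windows were found for 9 of the 10 genes, 16 in all, and none for Lmo2. A GATA motif was present in 3 of the 16 (18.8%), against 29.8% of all 32851 RefSeq windows of this length, and an E-box in 10 (62.5%), against 72.3%. Of the windows with an E-box, 2 of Lmo4 overlap and hold the same site. The other window with the motif was the third of Ldb1, with 2 matches, 240 and 200 bases before its start. The members' windows thus held these letters no more often than promoter windows in general, which says nothing of binding.

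Tcf3 (ENSMUSG00000020167.10, chr10:80409514-80433647, minus strand) encodes the E protein that pairs with TAL1. Its TPM was 15.5 and 21.5 (18.5 ± 4.27, SD, n = 2), from 2877 and 6085 expected counts. It was higher in replicate 2 on all 7 scales, by 0.79 relative to the median gene (1.73-fold), with a counting interval of 0.73 to 0.86 at 95% that covers counting error only. In coding transcripts alone the difference was 1.03, past 2-fold. Tcf3 and Tal1 were not apart in replicate 1 and were in replicate 2, with Tal1 at 0.97 and 0.64 of the Tcf3 TPM. Over coding transcripts Tal1 was above Tcf3 in replicate 1 (log2 ratio 0.31) and below it in replicate 2 (-0.55). Among the 3 E protein genes Tcf3 held 43.6% and 55.1% of the summed TPM, Tcf12 35.5% and 31.5%, and Tcf4 20.9% and 13.4%.

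Tcf3 has 2 mutually exclusive exons that encode alternative versions of its bHLH domain, the part that binds the E-box and pairs with TAL1. They are shown because the transcripts that carry them differed in level. The sequences are GENCODE M21 exons, 5′ to 3′ on the minus strand, and capitals mark bases identical in both in a global alignment of the exons.
Downstream exon, chr10:80410398-80410624, from Tcf3-205: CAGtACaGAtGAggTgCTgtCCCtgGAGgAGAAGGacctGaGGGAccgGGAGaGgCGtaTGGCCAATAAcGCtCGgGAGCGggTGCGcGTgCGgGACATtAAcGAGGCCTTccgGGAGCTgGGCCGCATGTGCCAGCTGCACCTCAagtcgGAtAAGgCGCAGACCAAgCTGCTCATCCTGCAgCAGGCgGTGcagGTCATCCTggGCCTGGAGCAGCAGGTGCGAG
Upstream exon, chr10:80412827-80413062, from Tcf3-206: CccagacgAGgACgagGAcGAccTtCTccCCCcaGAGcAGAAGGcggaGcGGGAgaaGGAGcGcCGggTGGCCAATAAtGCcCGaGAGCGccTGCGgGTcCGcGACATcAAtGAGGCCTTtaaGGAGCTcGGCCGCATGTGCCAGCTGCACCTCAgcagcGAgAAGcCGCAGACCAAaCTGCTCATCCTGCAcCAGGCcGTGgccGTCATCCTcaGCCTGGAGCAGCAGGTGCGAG
They are 227 and 236 bases long, and 175 of the 227 aligned bases (77.1%) are identical. The 7 transcripts with the downstream exon summed to 10.1 and 16.6 TPM in replicates 1 and 2. The 4 with the upstream exon had 2 and 1.82. The downstream exon thus held 83.5% and 90.1% of the TPM assigned to the pair. The lead of the downstream exon was from Tcf3-205, at 41.9% and 56.3% of the gene's TPM, and Tcf3-208, at 17.6% and 20.5%. Outside both sets, the non-coding Tcf3-212 was at 21.7% and 7.20% of the gene's TPM but 6.35% and 2.03% of its expected counts. Tcf3-213, also outside them, was at 0 and 7.38% of the TPM. Tcf3-210, with the upstream exon, was at 9.43% in replicate 1 and 0 in replicate 2, and Tcf3-206, also with the upstream exon, at 0 and 8.45%. These assignments are uncertain in replicate 1, where the posterior mean shares were 4.36% and 3.04% and the interval of Tcf3-210 (0.00036 to 1.41 TPM) overlaps that of replicate 2. The downstream exon had the larger share in both libraries. Which exon belongs to which of the gene's named protein products was not assigned.

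Lmo2 (ENSMUSG00000032698.11, chr2:103957986-103981878, plus strand), the LIM-only bridge of the complex, had the highest level of the 10 genes. Its TPM was 105 and 84.4 (94.5 ± 14.3, SD, n = 2), from 12139 and 14524 expected counts, at percentiles 96.0 and 95.9 of detected genes. Relative to the median gene the libraries differed by 0.01, with values from -0.31 without centring to 0.05 in TMM-scaled counts. Lmo2-208 held 94.3% and 94.6% of the TPM. It belongs to the upstream start, which held 95.4% and 94.6% of the TPM. The start 11542 bases downstream, that of Lmo2-204, held 3.8% and 3.77%, and the group of starts 12143 bases downstream 0.82% and 1.61%. Lmo2 is known to be expressed from separate promoters, and in both libraries nearly all of its signal was assigned to the upstream one.

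Lmo4 (ENSMUSG00000028266.13, chr3:144188530-144205220, minus strand), a LIM-only protein gene with broad expression that also binds LDB1, had a TPM of 5.45 and 4.17 (4.81 ± 0.91, SD, n = 2) from 647 and 666 expected counts. Lmo2 exceeded it 19.2-fold in replicate 1 and 20.2-fold in replicate 2. That is the largest of the 7 ratios taken between members, with a log2 SD of 0.05 over all transcripts. In coding transcripts its log2 values lay farther apart, at 4.31 and 4.82. The 2 genes together made up the LIM-only family here, with Lmo2 at 95% and 95.3% of its TPM, and Lmo1 and Lmo3 had 0 counts in both libraries. Lmo4 was spread over more transcripts in replicate 2. Lmo4-201 went from 52.0% to 27.8% of the TPM, Lmo4-203 from 43.0% to 21.3%, Lmo4-202 from 1.28% to 22.3%, and the non-coding Lmo4-205 and Lmo4-206 from 3.66% and 0 to 13.2% and 15.3%. In coding transcripts alone Lmo4 was lower in replicate 2 by -0.51, against -0.07 over all transcripts.

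Ldb1 (ENSMUSG00000025223.10, chr19:46031570-46045214, minus strand), the scaffold that dimerises, was second in level. Its TPM was 79.3 and 58.0 (68.7 ± 15.1, SD, n = 2), from 10009 and 11705 expected counts. The TPM of Ldb1 was 0.76 of that of Lmo2 in replicate 1 and 0.69 in replicate 2. In coding transcripts this ratio was lower, with a log2 value of -1.03 and -0.89 against -0.40 and -0.54 over all transcripts. The difference between the libraries had no stable direction, at -0.13 in centred TPM, 0.01 in TMM-scaled counts and 0.14 in coding transcripts. Its signal was divided over several transcripts. Ldb1-204, a transcript with a retained intron, had the largest share in replicate 1 (32.5%, TPM 25.8) and 18.4% (TPM 10.7) in replicate 2, where Ldb1-205 led with 32.4% after 29.3% in replicate 1. Ldb1-201 was at 18.4% and 29.4%, Ldb1-202 at 12.1% and 11.2%, and Ldb1-206 at 4.9% and 5.76%. By expected counts Ldb1-205 led in both libraries, at 37.9% and 38.6%. The upstream group of starts held 23.3% and 35.1% of the TPM, and the group 5593 bases downstream held 41.4% and 43.5%. The other member of the family, Ldb2, had 0 counts in both libraries. The 5′ end of Ldb1 overlaps Pprc1 on the opposite strand (1325 and 2118 expected counts).

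**Figure D2:**
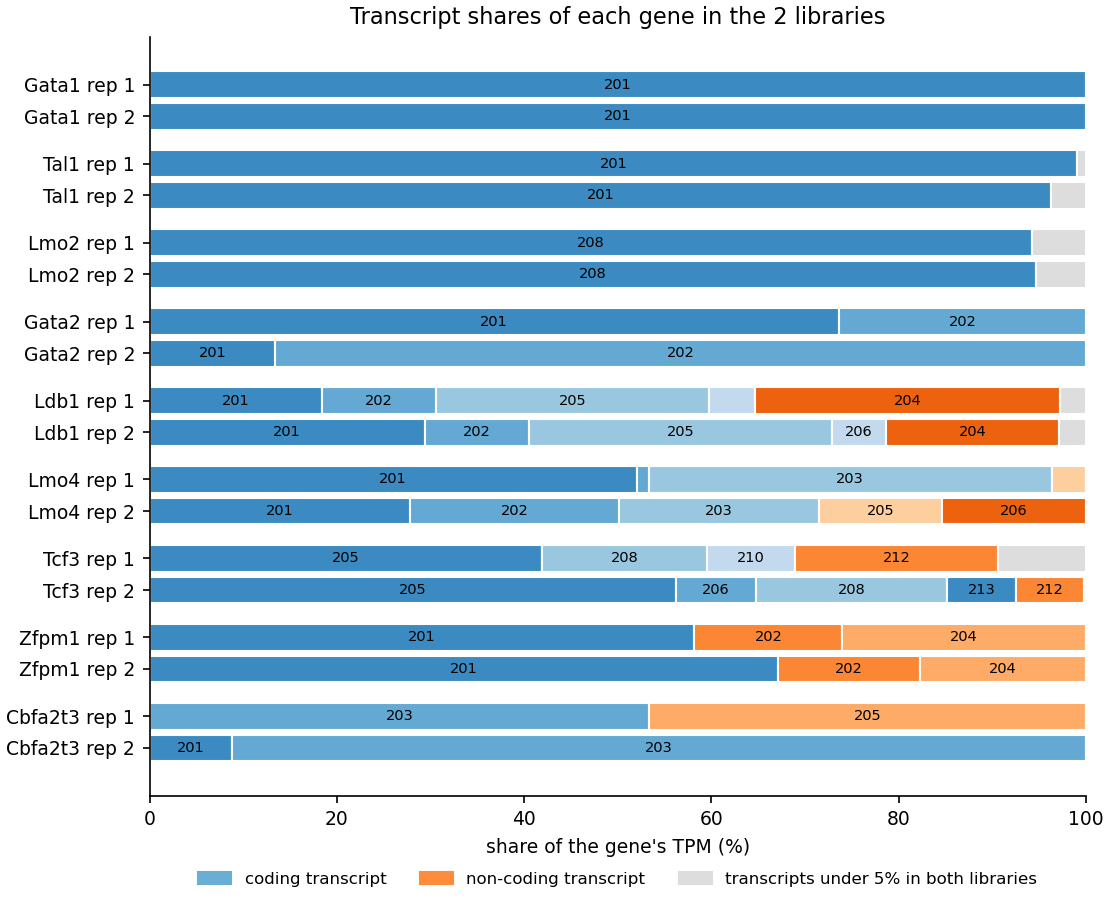
Share of each gene's TPM (percent, horizontal axis) assigned to its transcripts in replicates 1 and 2 (rep 1 and rep 2), for the 9 complex genes with over 1 transcript; blue is coding, orange non-coding, and grey the sum of transcripts under 5% in both libraries. Gata1, Tal1 and Lmo2 keep 1 transcript at 94.3% or more, while Gata2-201 goes from 73.6% to 13.4%.

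Zfpm1 (ENSMUSG00000049577.10, chr8:122282141-122337251, plus strand) encodes FOG1, the zinc finger protein that GATA1 needs at many of its targets. Its TPM was 11.4 in replicate 1 and 21.7 in replicate 2 (16.5 ± 7.28, SD, n = 2), from 2111 and 6643 expected counts. The intervals of the libraries, 10.2 to 12.7 and 20.3 to 22.9, lie far apart. Relative to the median gene Zfpm1 was higher in replicate 2 by 1.25 on the log2 scale (2.37-fold), with a counting interval of 1.18 to 1.32 at 95%. It was the only 1 of the 10 genes past 2-fold, against 11.9% of 9033 nuclear protein-coding genes past 2-fold either way and 5.49% in this direction, so the count of members is near the background. The difference was 0.93 without centring, inside 2-fold, and 1.44 in TMM-scaled counts, where 8.35% of the 9033 genes were past 2-fold and Zfpm1 was again the only member. Gata1 exceeded Zfpm1 3.15-fold in replicate 1 and 1.44-fold in replicate 2, the widest spread among the 7 ratios, with a log2 SD of 0.80. In coding transcripts this ratio was higher, with a log2 value of 2.44 and 1.11 against 1.66 and 0.53 over all transcripts.

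Only 1 transcript of Zfpm1 with signal was coding, Zfpm1-201. It held 58.2% and 67.1% of the TPM but 90.7% and 93.2% of the expected counts, since the non-coding Zfpm1-202 and Zfpm1-204 are short. The TPM of Zfpm1-201 was 6.62 (interval 6.21 to 6.86) and 14.5 (14.0 to 14.8), so the coding transcript was higher in replicate 2 as well. The gene lies within Gm20388, a long protein-coding model on the same strand with 1635 and 1956 expected counts. These are estimated shares of reads, and their assignment between Zfpm1 and Gm20388 is uncertain. The part of this assignment in the Zfpm1 difference was not tested. The other FOG gene, Zfpm2, had 0 counts in both libraries.

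Cbfa2t3 (ENSMUSG00000006362.11, chr8:122625141-122699109, minus strand) encodes ETO2, the corepressor that joins the complex through the bHLH dimer. Its TPM was 4.18 and 2.15 (3.17 ± 1.44, SD, n = 2), from 813 and 1081 expected counts. The direction of its difference depended on the scale, at -0.64 in centred TPM, 0.20 in TMM-scaled counts and 0.26 in coding transcripts. In replicate 1 the short non-coding Cbfa2t3-205 was given 46.7% of the TPM (TPM 1.95, interval 0.59 to 3.04) from 33.5 expected counts, 4.12% of the gene's counts, and in replicate 2 it had 0. The effective length of the gene, by which its counts are scaled, was 2128 bases in replicate 1 and 3741 in replicate 2. The coding transcript Cbfa2t3-203 had a TPM of 2.23 and 1.96, or 53.3% and 91.2%, and Cbfa2t3-201, from a group of starts 20415 bases downstream, 0 and 8.84%. Coding Cbfa2t3 was thus nearly level between the libraries in TPM without centring. Over all transcripts Tal1 exceeded Cbfa2t3 3.6-fold in replicate 1 and 6.37-fold in replicate 2, and over coding transcripts 6.74-fold and 6.37-fold, so the gap between the libraries was not seen there. Of the 3 ETO family genes, Cbfa2t3 held 59.9% and 34.6% of the TPM and Cbfa2t2, at 2.78 and 4.06, held 39.8% and 65.4%. The 59.9% in replicate 1 includes Cbfa2t3-205. Coding transcripts of Cbfa2t3 summed to 2.23 and 2.15 TPM, and those of Cbfa2t2 are not given here. In expected counts Cbfa2t2 was above Cbfa2t3 in both libraries, at 1300 and 1950 against 813 and 1081. Cbfa2t3 overlaps Gm20388 and the antisense gene Gm10612 (19 and 0 expected counts) on the opposite strand.

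**Figure D3:**
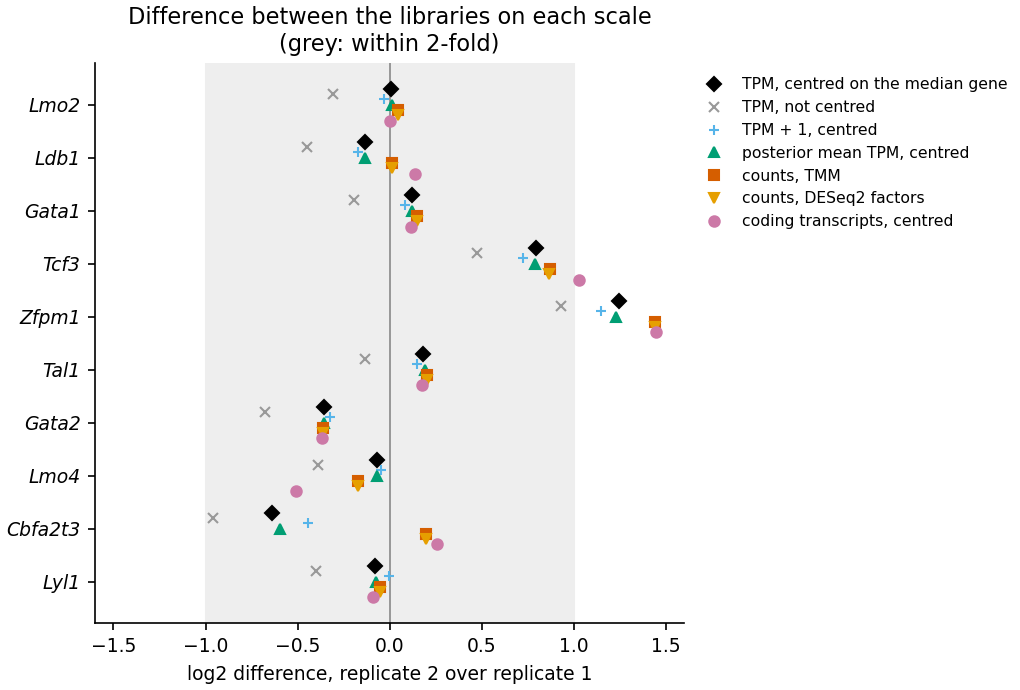
Log2 difference between the libraries (replicate 2 over replicate 1, horizontal axis) of each complex gene on 7 scales; the grey band is within 2-fold. Zfpm1 lies past 2-fold on 6 of the 7 scales, Gata2, Lmo4 and Lyl1 are below 0 on all of them, and Cbfa2t3 and Ldb1 fall on both sides of 0. In centred TPM the counting intervals of Lmo4 and Lyl1 include 0.

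Read together, 5 of the 10 genes were above the median gene in replicate 2 and 5 below it, with a median log2 difference of -0.03. At a 1.5-fold threshold 3 of the 10, Zfpm1, Tcf3 and Cbfa2t3, differed between the libraries, against 29.0% of the 9033 genes. The authors' TPM intervals of the libraries did not overlap for 10 of 10 genes, against 76.9% of the 9033, before any centring. Gata2, Lmo4 and Lyl1 were lower in replicate 2, and Zfpm1 and Tcf3 higher, on all 7 scales tried. The 7 scales reuse the same 2 libraries, so a shared sign is no replicate check. In centred TPM the counting intervals included 0 for Lmo4 (-0.227 to 0.090) and Lyl1 (-0.28 to 0.122). Those of Gata2 (-0.437 to -0.278), Zfpm1 and Tcf3 did not. On that scale the direction for Lmo4 and Lyl1 was thus within counting error. The leading transcript differed between the libraries for 2 of the 9 genes with over 1 transcript, Gata2 and Ldb1, against 27.4% of 6363 detected genes of that kind. Of the 57 transcripts, 28 reached 5% of their gene's TPM in 1 or both libraries and 17 had 0 counts in both.

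**Figure D4:**
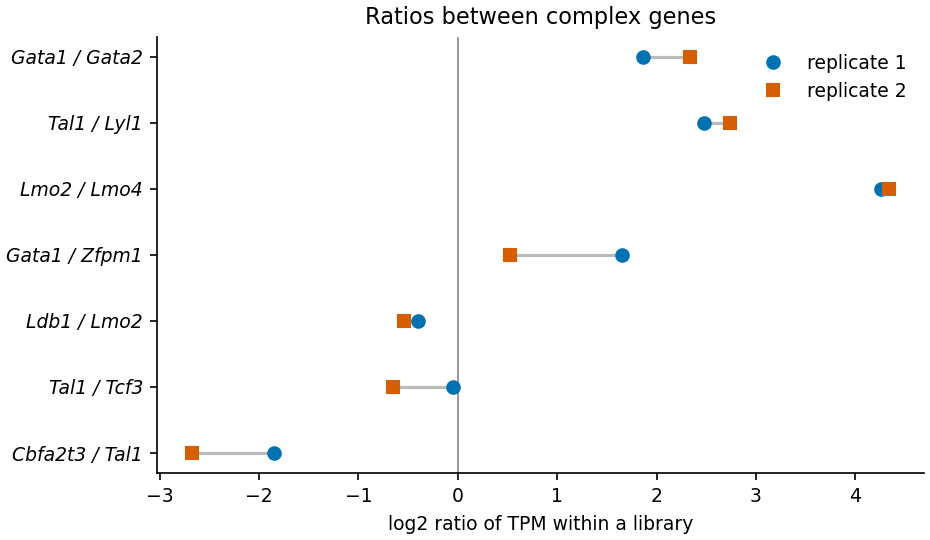
Log2 TPM ratio of 7 pairs of complex genes in replicates 1 and 2, joined by a line. Lmo2 over Lmo4 (4.26 and 4.34) has the smallest spread over all transcripts, though not over coding transcripts (4.31 and 4.82), and Gata1 over Zfpm1 (1.66 and 0.53) the largest.

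The ratio within a library does not depend on the shift between libraries. The sign of all 7 ratios was shared by both libraries in the summed TPM. No test was made on them, since 2 libraries cannot give a two-sided sign test below 0.5. On the log2 scale Gata1 over Gata2 was 2.10 ± 0.34, Tal1 over Lyl1 2.61 ± 0.19, and Lmo2 over Lmo4 4.30 ± 0.05 (SD, n = 2). Each of these is larger than its spread, and in each the better known red cell member of the paralog pair had the higher level. Ldb1 over Lmo2 was -0.47 ± 0.10 and Cbfa2t3 over Tal1 -2.26 ± 0.58, also beyond their spread. Tal1 over Tcf3, at -0.35 ± 0.43, was not beyond it.

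Other genes of the pathway were counted in lists. Among 16 partners and paralogs 6 were detected at a TPM of 1 or more in each library, as were 39.4% of nuclear protein-coding genes. The LDB1-binding protein genes Ssbp3 (13.6 and 13.8) and Ssbp2 (16.4 and 7.76) and the E protein genes Tcf12 (12.6 and 12.3) and Tcf4 (7.44 and 5.25) led them. Of the 16, 7 had 0 counts in both libraries, namely Gata4, Gata5, Gata6, Lmo1, Lmo3, Ldb2 and Zfpm2. By counting alone, a floor of 3 counts corresponds for these genes to 0.0388 TPM or less in replicate 1 and 0.0264 or less in the other library, the values for the shortest, Lmo1. The upper ends of the authors' intervals reach higher, to 0.178 and 0.122 for Gata4. Of 5 inhibitors 2 were detected, so both lists were near the share over all nuclear protein-coding genes. Rlim, a ubiquitin ligase that targets LDB1 and LIM proteins, had 32.2 and 23.3. Id2, which blocks E proteins, had 2.02 and 4.97 and was past 2-fold higher in replicate 2, and Id3 and Id4 stayed under 1. Id1 had 0 counts in both.

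Of 12 known erythroid targets 11 were found, Ahsp being without a match. By that rule 8 were detected, against 39.4% of nuclear protein-coding genes. The red cell factor gene Klf1 had a TPM of 43.0 and 49.0, and the repressor gene Gfi1b 24.2 and 24.3. The expected counts of Gfi1b were 2433 and 4892, and its difference was 0.32 in centred TPM and 0.80 in TMM-scaled counts. Of the 9 that could be compared, 8 were above the median gene in replicate 2, with a median log2 difference of 0.48 (0 over the 9033 genes). In centred TPM 1 member was past 2-fold higher, Kel, and 1 lower, Bcl2l1, against 5.49% and 6.44% of the 9033 genes. In TMM-scaled counts Kel was at 0.59, and the list had 0 higher and 1 lower, against 8.35% of the 9033 genes either way. Slc4a1 and Alas2, with a mean TPM of 0.77 and 0.52, were not compared. Of 6 megakaryocyte targets 3 were detected, and all 6 had 10 expected counts in each library, as did 50.3% of nuclear protein-coding genes. Nfe2 (37.8 and 26.6), Pf4 (23.5 and 8.71) and Itga2b (19.6 and 5.7) led, and 3 of the 4 compared were below the median gene in replicate 2, Pf4 and Itga2b past 2-fold. Gp9 was low and went the other way (0.43 and 1.65). Of 4 genes known to fall as GATA1 acts, Myb (150 and 108), Kit (43.0 and 27.9) and Myc (17.1 and 18) were detected by that rule, while Spi1 had 0.98 and 1.9. Spi1 had 108 and 105 expected counts, with a difference of 1.27 in centred TPM and -0.25 in TMM-scaled counts. Some genes of each list were thus detected beside the complex genes, with no knockout or reference cells to relate them to the complex.

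**Figure D5:**
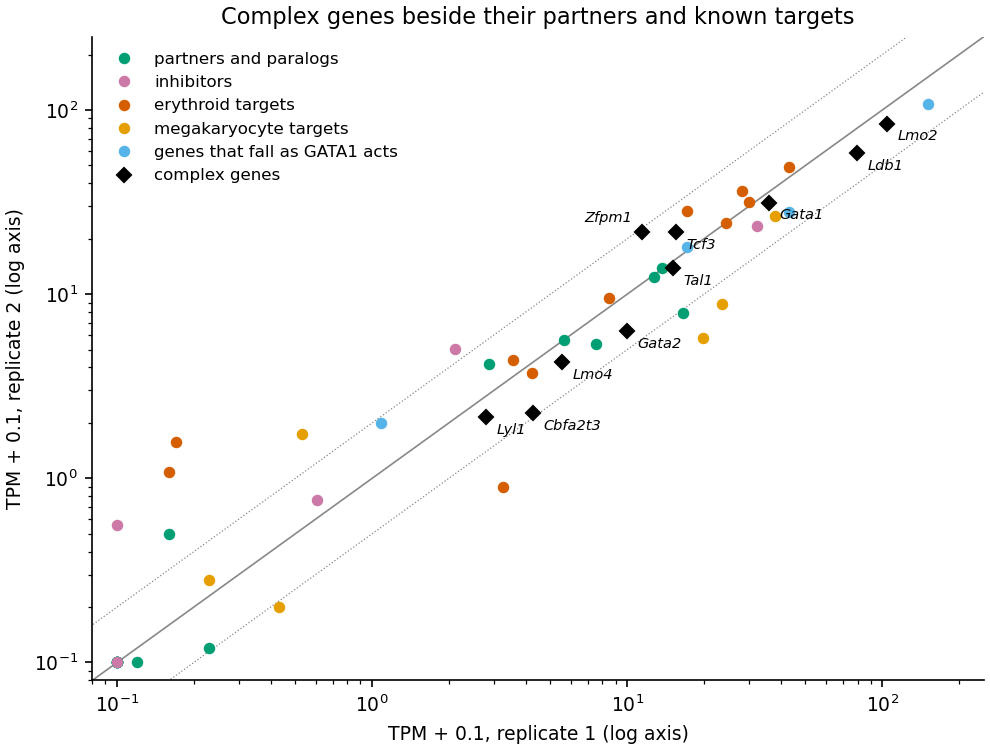
TPM + 0.1 in replicate 1 (horizontal) against replicate 2 (vertical), both log axes, for the complex genes (black diamonds) and 5 lists of partners, inhibitors and known targets; the solid line is equality and the dotted lines are 2-fold, in TPM that is not centred. Zfpm1 (11.4 and 21.7) lies nearest the upper dotted line among the complex genes, and Pf4 (23.5 and 8.71) and Itga2b (19.6 and 5.7) lie below the lower one.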

How the data were processed

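Total RNA of megakaryocyte-erythroid progenitors was sequenced in 2 libraries of 1 group. Per the file headers, the authors deposited for each gene and transcript an expected count (not normalized), TPM (scaled over all rows of the table), a posterior mean TPM, FPKM, the percent of the gene's TPM taken by a transcript, and 2 further columns treated here as scores, the bounds of a TPM interval of unstated level and the effective length. Text files deposited with the tables name mm10 and GENCODE M4 as the authors' build and annotation. Each table holds 1 library. No source used here names the program that made the estimates.

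From these values gene names, transcript names and coordinates were taken by ID from GENCODE M21 on the same assembly. Levels are TPM with the SD of 2 libraries. Differences between libraries are log2 TPM ratios less the median of nuclear protein-coding genes (mean TPM 1 or more, summed counts 20 or more). No p-value was computed, since each side of that comparison is 1 library. Counting intervals at 95% are exact binomial intervals of the 2 counts and, like the floor of 3 counts, cover counting error only. Starts of a gene within 600 bases of the next were grouped. Transcript shares were recomputed from TPM. Coding shares are of the transcripts' sum.

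Alternatives were no centring, a pseudocount of 1, posterior mean TPM, FPKM, counts scaled with edgeR 4.0.16 TMM or DESeq2 1.42.0 size factors in R 4.3.3, other thresholds and leaving out a library; coding transcripts alone were added after seeing the data. Python 3.11.15 (pandas 2.3.3, numpy 2.4.6, scipy 1.17.1; figures with matplotlib 3.10.9) served for the rest, and the scripts were tested on simulated data. Promoter windows came from RefSeq (GRCm38.p6), searched on both strands, and no protein sequences were used here. The Tcf3 exons were aligned with Biopython 1.88. GATA motifs and E-boxes that overlap were each counted.

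The genes and all lists were chosen with earlier results of these data known. Named are all 10 genes, their transcripts at 5% of TPM or more, the 4 members of each pathway list with the highest mean TPM, list members at 0 counts, other markers with a mean TPM of at least 10, the 3 genes nearest Gata1 and Tal1, and genes overlapping a member. Some genes that this rule takes are not reported here. Names outside this rule (Gata3, Tal2, Cbfa2t2, Gata1-202, Tal1-203, Lmo2-204, Cd34, Mecom, Hlf, Flt3, Procr, Kel, Mpo, Elane, Vwf, Gp1ba) were chosen after their values were seen.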

Additional observations from a re-analysis of the deposited data

How the results depend on the processing

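The 2 libraries limit every value: no interval between mice can be given, and a count of 0 is read against a floor of 3. The number of complex genes past 2-fold between the libraries was 1 in centred TPM, 0 without centring, 2 in coding transcripts only (Zfpm1 and Tcf3) and 3 at 1.5-fold. The background share, 11.9%, was 28.1% with any count above 0 and 4.06% at a mean TPM of at least 10. Megakaryocyte targets detected went from 3 to 6 at 10 expected counts, where the share over nuclear protein-coding genes went from 39.4% to 50.3%. With a pseudocount of 1 the log2 ratio of Tal1 over Lyl1 was 2.19 and that of Lmo2 over Lmo4 4.04; in coding transcripts only the latter was 4.57 and Ldb1 over Lmo2 -0.96. The causes of these shifts were not tested. Apart from leaving out a library, 26 other recomputed counts and ratios moved by no more than the spread of the libraries or, for counts, by no more than 1.5 times. Among recomputed levels, differences and shares 65 did so and 55 moved further. Leaving out either library gives the other's value, which with 2 libraries is always within 1 SD of their mean: 1.86 to 2.34 for Gata1 over Gata2, 2.48 to 2.74 for Tal1 over Lyl1, 4.26 to 4.34 for Lmo2 over Lmo4, 0.53 to 1.66 for Gata1 over Zfpm1, -0.54 to -0.40 for Ldb1 over Lmo2, -0.65 to -0.04 for Tal1 over Tcf3 and -2.67 to -1.85 for Cbfa2t3 over Tal1. No paired analysis was possible because there is 1 group.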

Other observations

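The genes nearest to Gata1 in level, by the distance of log2(TPM + 1) over the 2 libraries, were Ube2j2 (TPM 35.5 and 31.2), Pole3 (36.1 and 31.1) and Dcaf8 (35.4 and 30.7). For Tal1 they were Rbm43 (15.1 and 13.6), Rhot1 (14.9 and 13.8) and Camsap2 (15.0 and 13.9). With 2 libraries many genes lie close: 110 protein-coding genes were within a distance of 0.2 of Gata1 and 188 within that distance of Tal1.

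Other low genes differed between the libraries beside the complex genes. The erythroid targets Slc4a1, the red cell anion exchanger gene, and Alas2, the first enzyme of haem synthesis in red cells, went from 27 to 852 and from 9 to 239 expected counts. The granzyme gene Gzma, a T and NK cell marker, went from 0 to 792 expected counts, while Nkg7 of the same list had 419 and 440. In the other direction, the erythroid target Bcl2l1 went from 337 to 171 and the mast cell and basophil marker Fcer1a from 53 to 0. The genes of this paragraph were chosen after their values were seen.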
